A study of Mus musculus with 12 samples.

Results

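T cells of irradiated MC38 tumours collected 3 days after radiation (RT-D3) were set against T cells of irradiated tumours collected 1 day after it (RT-D1), to describe how the transcriptome of tumour T cells moved between an early and a later time after the same dose. MC38 is a mouse colon carcinoma line, grown here in mice heterozygous for Kaede, a green fluorescent protein that violet light turns red. Photoconversion of the draining lymph node took place in all groups on day 14 after inoculation, so a red T cell found in the tumour had passed through that node at conversion and a green one had not been converted. RT-D3 tumours received 12 Gy on day 14 and were taken 72 h later (day 17), with no FTY720. RT-D1 tumours received the same 12 Gy and were taken 24 h later (day 15), also without FTY720. Cells from unirradiated tumours at the same times (NT-D3 and NT-D1), and from day 3 tumours of mice given 10 µg of FTY720 on day 15 without radiation (FTY720-D3) or with it (RTFTY720-D3), served as side references. FTY720 acts on receptors for sphingosine-1-phosphate and keeps lymphocytes from leaving lymphoid organs. All cells passed magnetic enrichment for CD4+ and CD8+ tumour-infiltrating lymphocytes and a sort of live CD90.2+ cells by Kaede colour.

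A cell belonged to the comparison when its strongest hashtag carried an RT-D3 or RT-D1 name, reached a minimum of 20 UMIs and outnumbered the next hashtag by a factor of 3 or more. The cell also needed 500 detected genes or more, with mitochondrial UMIs up to a limit of 10%. The rule gave 159 RT-D3 cells (53 in replicate 1 and 106 in replicate 2) and 699 RT-D1 cells (178 and 521), 858 of the 2740 cells kept in the series. Each replicate was a pool of 4 tumours, so each day had 2 pools, and p-values measure the spread between pools and not between single animals. RT-D3 cells were captured in wells 2 and 4 and RT-D1 cells in wells 1 and 3, so the day and the well cannot be told apart in this comparison. NT-D3 and NT-D1 cells shared wells 1 and 3 with RT-D1, so the unirradiated day effect compares pools of the same wells. The main fit held no well or replicate term, so that effect was not estimated well by well. FTY720-D3 and RTFTY720-D3 cells shared wells 2 and 4 with RT-D3. The wells shared 0 cell barcodes.

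The colour of an irradiated cell was carried by a 15-base hashtag. The 4 tags are shown because both members of each pair changed colour between replicates in the deposited names, all in lower case with no base marked.
RT-D3 tag, red in replicate 1 and green in replicate 2: acccaccagtaagac
RT-D3 tag, green in replicate 1 and red in replicate 2: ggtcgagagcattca
RT-D1 tag, red in replicate 1 and green in replicate 2: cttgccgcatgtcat
RT-D1 tag, green in replicate 1 and red in replicate 2: aaagcattcttcacg
Whether the tags were exchanged at labelling or in the names cannot be told from the sequences. The sums over both colours used below do not depend on which name is right, while values of a single colour do. Red cells made up 45.28% and 60.38% of the RT-D3 pools, against 80.34% and 55.85% of the RT-D1 pools. Were the replicate 2 names turned, replicate 2 would be 39.62% red in RT-D3, against 44.15% in RT-D1. RT-D1 replicate 1 stood apart in colour either way.

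Ionising radiation breaks DNA and stabilises the transcription factor p53, which switches on genes for cell cycle arrest and repair, for its own negative feedback and for programmed death. Fragments of nuclear or mitochondrial DNA in the cytosol can also engage the cGAS and STING pathway, which leads to type I interferon and to a wave of interferon-stimulated genes through the interferon factor ISGF3. T cells further carry a cytokine and chemokine programme that follows engagement of the T cell receptor (TCR), and a sterol programme under the transcription factor SREBP2 that accompanies growth.

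Pools held 1346632 and 2014340 UMIs in RT-D3, against 4003794 and 11202484 UMIs in RT-D1, and the median cell had 21162 and 15261 UMIs in RT-D3 against 20818.5 and 19408 in RT-D1. The depth of the RT-D3 pools limits what can be seen in genes with few reads. Median mitochondrial shares were 1.146% and 1.147% in RT-D3, against 1.585% and 1.59% in RT-D1. No marker of myeloid, B, NK, gamma-delta T or tumour and stromal cells was called in the pools of all kept cells by edgeR's quasi-likelihood test, with 3 markers in all at an unadjusted p under 0.05 and 0 called by DESeq2. Summed myeloid markers stood at 134.4 and 150.4 CPM (UMIs scaled to a common library total, defined below) in RT-D3 and at 72.93 and 190.6 CPM in RT-D1. Summed NK markers stood at 86.14 and 637.4 CPM in RT-D3 and at 227.8 and 434.1 CPM in RT-D1, so the RT-D3 pools differed among themselves, and the part of this in the results was not tested. Ncr1, Klra8 and Klra4 of that list had no UMI in RT-D3. Of 10 tumour and stromal markers, 8 had no UMI in RT-D3, Krt8, Krt18, Col1a1 and Col1a2 among them, and 3 had none in RT-D1.

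Cells were named by clusters and lineage transcripts as CD8-like, regulatory T cell (Treg)-like or CD4 conventional-like. Cd8a, Cd8b1, Cd4 and Foxp3 took part in naming the classes, so their levels describe the labels and cannot test them. Cd8a stood at 1090 and 1090 CPM in RT-D3 CD8-like cells and at 1170 and 910 CPM in RT-D1 CD8-like cells, where Cd4 stayed under 10 CPM in all 4 pools. Foxp3, the transcription factor of Treg cells, stood at 942 and 684 CPM in RT-D3 Treg-like cells, against 662 and 820 CPM in RT-D1 ones. CD8-like cells made up 54.7% and 51.9% of RT-D3 pools, against 65.7% and 48.8% of RT-D1 pools. Treg-like cells made up 22.6% and 18.9% in RT-D3, against 15.2% and 27.3% in RT-D1, and CD4 conventional-like cells 20.8% and 28.3% in RT-D3, against 18% and 22.3% in RT-D1. None of the 3 shares differed beyond the spread between pools (exact permutation test, two-sided, p = 1, 1 and 0.667), and the smallest p this design allows is 0.333.

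Raw UMI counts were summed per pool and class and tested with edgeR's quasi-likelihood test with Benjamini-Hochberg adjustment over all genes tested. A gene is called changed here at an adjusted p below 0.05. CPM is a gene's UMI count scaled to a total of 1000000 UMIs for that pool and class, with edgeR's TMM-adjusted totals for single genes, fold changes are log2 of RT-D3 over RT-D1 with their standard error (SE), and in these summed pools fewer cells of a type and less RNA per cell cannot be told apart. In CD8-like cells 205 of 10573 genes were called higher in RT-D3 (1.94%) and 117 lower (1.11%). In Treg-like cells 29 of 8357 were higher (0.347%) and 7 lower (0.0838%), and in CD4 conventional-like cells 186 of 8890 were higher (2.09%) and 30 lower (0.337%). Across all kept cells 396 of 11247 genes were higher (3.52%) and 291 lower (2.59%). The median of all genes lay between -0.03 and 0.01 in these 4 fits. RT-D3 and RT-D1 pools did not overlap in nearly any called gene. This held for 321 of 322 in CD8-like, 36 of 36 in Treg-like and 216 of 216 in CD4 conventional-like cells, and 686 of 687 over all kept cells. Pools without overlap, where given below for a called gene, therefore add little to the call. Each count moved by more than 1.5 times when a pool was left out. Called genes in CD8-like cells numbered 133 without RT-D3 replicate 2, 119 without RT-D1 replicate 1 and 54 without RT-D1 replicate 2, against 322 with all pools. They numbered 60 to 133 in CD4 conventional-like cells with 1 irradiated pool left out, against 216, and over all kept cells 225 to 333, against 687. With both colours weighted equally, 29 of the 130 called gene and class pairs named below lost the call. They were Phlda3, Psrc1, Ccl1, Ccl3, Ccl4, Ifng, Il13, Egr2, Egr3, Itga1, Itgb1, Sqle, Bcat1, Ly6c1, Mx1 and Psmb8 in CD8-like cells, and Pcsk1, Trbv19, Lpin2 and Insig1 in Treg-like cells. In CD4 conventional-like cells they were Csf2, Ccr7, Pde7b, Gm5431, Hcfc2, Trbv13-1 and Cd7, and over all kept cells Fdps and Hmgcs1.

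Few genes passed the test between the days in unirradiated tumours. With 2 pools per day, genes that were not called may still have changed. NT-D3 against NT-D1 gave 2 called genes in CD8-like cells (0.0189%), 0 in Treg-like cells (0%), 0 in CD4 conventional-like cells (0%) and 6 over all kept cells (0.0533%). At an unadjusted p under 0.05 the same 4 comparisons held 563, 415, 194 and 860 genes. The day effect in RT minus the day effect in NT was called for 11 genes in CD8-like cells (0.104%), 49 in CD4 conventional-like cells (0.551%), 56 over all kept cells (0.498%) and 0 in Treg-like cells (0%), where 343 genes had an unadjusted p under 0.05 and DESeq2 also called 0. Wells 2 and 4 were set against wells 1 and 3 without radiation through FTY720-D3 against NT-D3, which also carries the drug. That comparison gave 0 called genes in CD8-like and Treg-like cells (0% each), 8 in CD4 conventional-like cells (0.09%, where FTY720-D3 kept 1 pool) and 0 over all kept cells (0%), with 710, 325, 620 and 800 genes at an unadjusted p under 0.05. Where that comparison called 0 genes, none could be shared with the calls between RT-D3 and RT-D1. In CD4 conventional-like cells none of the 8 genes was also called between RT-D3 and RT-D1 in the same direction. The part of the wells in the day difference was not tested.

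The p53 targets Phlda3, Ccng1 and Bax, called higher in RT-D1 than in NT-D1 CD8-like cells, lay near the unirradiated level at 3 days. Cdkn1a, also called higher in RT-D1, stayed above that level. Of 18 measured arrest, repair and feedback targets (20 listed), 2 fell, none rose and 17 lay below 0, with a median log2 fold change of -0.41. Of 9 measured death targets (10 listed), 1 fell, none rose and 7 lay below 0, with a median of -0.60, where all 10573 genes had a median of 0.01. The same lists had medians of 0.03 and -0.07 between NT-D3 and NT-D1. Set against unirradiated cells of the same day, the medians were 0.04 for arrest and 0.37 for death targets in RT-D3 and 0.48 and 0.40 in RT-D1. By this measure the median of the death targets hardly moved. These comparisons share pools with the main one.

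Phlda3, a p53 target that restrains AKT signalling, stood at 1.1 and 3.41 CPM in RT-D3 CD8-like pools, against 33.9 and 21.6 CPM in RT-D1 ones, with 2.86 and 2.27 CPM in NT-D3 and 1.68 and 1.54 CPM in NT-D1. The RT-D1 pools lay above all others, and the RT-D3 pools sat beside the unirradiated ones. The log2 fold change was -3.50 (SE 0.60, adjusted p = 0.011), and it rested on 5 UMIs in RT-D3 against 225 in RT-D1. With cells thinned to 8000 UMIs, Phlda3 was detected in 0 of 27 and 0 of 50 RT-D3 CD8-like cells, which at this thinned depth allows shares of cells with a UMI of up to 11.1% and 6%, against 21 of 103 (20.4%) and 34 of 243 (14.0%) RT-D1 CD8-like cells. Unthinned shares were 3.45% and 7.27% in RT-D3, against 27.4% and 20.9% in RT-D1. Foxp3, which CD8-like cells should lack, was detected after thinning in 3.7% and 2% of RT-D3 and 0% and 1.65% of RT-D1 CD8-like cells, at medians of 26600 and 20000 UMIs in RT-D3 and 22400 and 21600 UMIs in RT-D1. Intervals and limits here cover counting error only.

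Bax, the pore-forming effector of mitochondrial apoptosis, stood at 141 and 129 CPM in RT-D3, against 306 and 248 CPM in RT-D1, with 136 and 130 CPM in NT-D3 and 132 and 144 CPM in NT-D1. Bax thus lay at about the unirradiated level in RT-D3 and clearly above it in RT-D1, with groups that did not overlap. Its log2 fold change was -1.04 (SE 0.14, adjusted p = 0.0036), and it kept the call with each irradiated pool left out (adjusted p 0.011 to 0.033). Ccng1, which encodes cyclin G1, stood at 102 and 75.8 CPM in RT-D3, against 224 and 162 CPM in RT-D1, with 73.6 to 78.5 CPM in the 4 unirradiated pools. Its log2 fold change was -1.12 (SE 0.19, adjusted p = 0.011). Phlda3 and Ccng1 lost the call when single pools were left out: Phlda3 without RT-D3 replicate 1 (adjusted p = 0.054) and without RT-D1 replicate 1 (0.071), Ccng1 without RT-D3 replicate 2 (0.082) and without RT-D1 replicate 1 (0.062). With both colours weighted equally Phlda3 had an adjusted p of 0.058.

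Cdkn1a, which encodes the cell cycle inhibitor p21, stood at 59.5 and 49.4 CPM in RT-D3 CD8-like pools, against 99.5 and 69.4 CPM in RT-D1 ones, with 15.5 and 21.1 CPM in NT-D3 and 16.2 and 21.5 CPM in NT-D1. Both irradiated groups lay above both unirradiated ones. The day difference of -0.62 (SE 0.23) did not pass the test (adjusted p = 0.18), while RT-D3 against NT-D3, which calls 542 of 10573 genes (5.13%), gave Cdkn1a a log2 fold change of 1.53 (adjusted p = 0.0051). In the same comparison Phlda3, Ccng1 and Bax had -0.07, 0.23 and 0.02 (adjusted p = 0.98, 0.62 and 0.98). One day after radiation RT-D1 against NT-D1 called 8 genes in CD8-like cells (0.0757%), with log2 fold changes of 4.08 for Phlda3 (adjusted p = 0.0062), 2.11 for Cdkn1a (0.0043), 1.33 for Ccng1 (0.01) and 1.00 for Bax (0.01). Whether the day effect of Phlda3, Bax and Ccng1 differed from that in unirradiated tumours did not pass the adjustment (adjusted p = 0.088, 0.085 and 0.12). After thinning, Cdkn1a was detected in 33.3% and 14% of RT-D3 CD8-like cells and 38.8% and 23.5% of RT-D1 ones, against 4.39% to 9.17% in the 4 unirradiated pools.

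**Figure D1:**
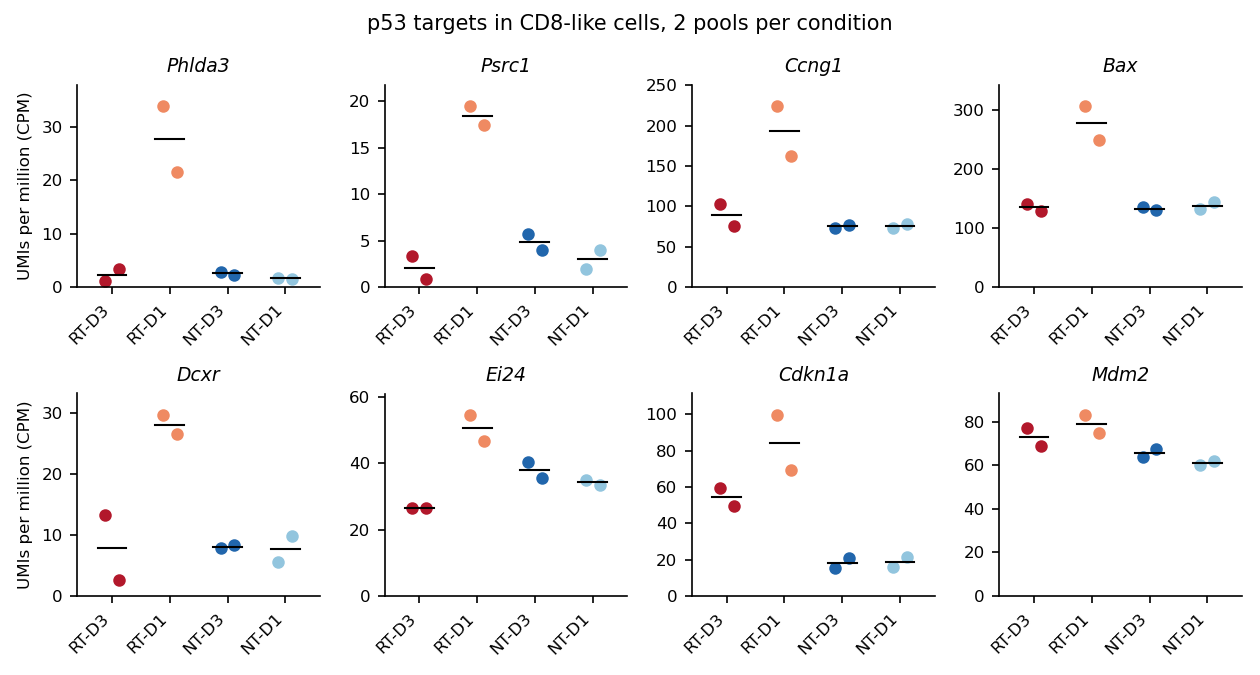
CPM of 8 genes in CD8-like cells (y axes, linear, from 0) in RT-D3, RT-D1, NT-D3 and NT-D1, with 1 point per pool and a bar at the mean of 2 pools. Phlda3, Psrc1, Ccng1, Bax and Dcxr stand highest in both RT-D1 pools, while Cdkn1a lies above the unirradiated pools in RT-D3 as well as in RT-D1.

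The remaining p53 targets in CD8-like cells did not pass edgeR's test, while DESeq2 called Dcxr and Ei24 lower as well. Dcxr, a carbonyl reductase of xylulose metabolism, stood at 13.2 and 2.56 CPM in RT-D3, against 29.6 and 26.5 CPM in RT-D1 (log2 fold change -1.92, SE 0.47, adjusted p = 0.051). Ei24, a p53-induced protein of the endoplasmic reticulum, stood at 26.4 and 26.4 CPM in RT-D3, against 54.5 and 46.8 CPM in RT-D1 (-0.93, SE 0.24, adjusted p = 0.064). Both RT-D3 pools were below both RT-D1 pools in each of these genes. Mdm2, the ubiquitin ligase that feeds back on p53, stood at 77.1 and 69 CPM in RT-D3 and at 83 and 74.8 CPM in RT-D1, with overlapping groups (-0.11, adjusted p = 0.76). Aen, an apoptosis-enhancing nuclease, had a log2 fold change of -0.67 (adjusted p = 0.093).
Further arrest and repair genes had log2 fold changes of -1.82 for Plk2, -1.64 for Sesn2, -0.66 for Zmat3, -0.44 for Ddb2, -0.38 for Sesn1, -0.23 for Trp53inp1, -0.21 for Rrm2b, -0.17 for Polk, -0.15 for Plk3, -0.10 for Xpc, -0.01 for Ppm1d and 0.07 for Btg2. Further death genes had -1.46 for Tnfrsf10b and -0.71 for Fas, both death receptors, -0.60 for Bbc3 and -0.10 for Pmaip1, which encode PUMA and NOXA, and -0.03 for Apaf1, 0.21 for Perp and 0.21 for Pidd1. Gdf15, Trp53cor1 and Eda2r did not reach the count filter. Psrc1, which was on neither list, was among the 10 largest decreases, at 3.31 and 0.852 CPM in RT-D3, against 19.5 and 17.5 CPM in RT-D1 (-3.22, SE 0.66, adjusted p = 0.024), but 1 cell held 75% of its UMIs in RT-D3 and it lost the call in 3 of 4 cases with a pool left out (adjusted p up to 0.14).

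No p53 target was called by edgeR in CD4 conventional-like cells among 18 arrest and 7 death targets, with 5 and 2 at an unadjusted p under 0.05 and 0 by DESeq2, and the medians were -0.62 and -0.83. Phlda3 stood there at 16.8 and 13.5 CPM in RT-D3, against 54.6 and 38.8 CPM in RT-D1 and at most 3.37 CPM in the 4 unirradiated pools (-1.62, adjusted p = 0.25). Cdkn1a stood at 168 and 132 CPM in RT-D3, against 265 and 255 CPM in RT-D1, with 13.3 and 34.8 CPM in NT-D3 and 26.8 and 53.5 CPM in NT-D1 (-0.82, adjusted p = 0.47). In both genes the RT-D3 pools lay between the RT-D1 and the unirradiated pools. In Treg-like cells 0 of 17 arrest and 0 of 8 death targets were called, with 0 and 1 at an unadjusted p under 0.05 and 0 by DESeq2, and the medians were -0.11 and 0.01. Cdkn1a stood at 266 and 123 CPM in RT-D3 Treg-like pools, against 97.6 and 175 CPM in RT-D1 ones, with 41.7 to 81.2 CPM in the unirradiated ones (0.40, adjusted p = 0.8). Bax stood at 118 and 167 CPM in RT-D3 Treg-like pools, against 223 and 244 CPM in RT-D1 ones (-0.68, adjusted p = 0.3). Whether these day effects differ between the cell types was not tested.

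Phlda3, Ccng1, Dcxr and Bax fell over all kept cells. Dcxr stood at 13.1 and 9.11 CPM in RT-D3, against 29.7 and 27.5 CPM in RT-D1 (-1.40, adjusted p = 0.0072). Bax stood at 136 and 137 CPM in RT-D3, against 290 and 243 CPM in RT-D1, with 130 and 129 CPM in NT-D3 and 134 and 143 CPM in NT-D1 (-0.96, adjusted p = 0.00061). Its day effect differed from the unirradiated one by -0.86 (adjusted p = 0.033), and it kept the call with each irradiated pool left out, as Phlda3 did not (adjusted p up to 0.16) and Ccng1 (0.11) and Dcxr (0.082) did not without RT-D3 replicate 2. RT-D1 against NT-D1 called 11 genes over all kept cells (0.0978%), 4 of them arrest targets and 1 a death target.

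Per cell, over all kept cells, the p53 signal had a long upper tail in RT-D1 that was shorter in RT-D3. Summed arrest targets took a median of 9.11 and 8.08 UMIs per 10000 in RT-D3 cells, against 10.52 and 10.45 in RT-D1 cells, with 7.51 to 8.43 in the 4 unirradiated pools. The 90th percentile was 20.49 and 17.85 per 10000 in RT-D3, against 28.27 and 25.77 in RT-D1, with 13.71 to 15.24 in the unirradiated pools. The RT-D3 tail lay below that of RT-D1 and above that of unirradiated cells in both pools. In CD8-like and in CD4 conventional-like cells both RT-D3 pools also lay below both RT-D1 pools at this percentile. In Treg-like cells the groups overlapped, at 23.45 and 17.47 per 10000 in RT-D3, against 21.3 and 24.94 in RT-D1.

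The promoter of Cdkn1a is shown because it was the 1 p53 target promoter here that held the p53 pattern searched. That pattern was 2 half-sites with a gap allowed between them and no mismatch. Promoters were taken from RefSeq's table on GRCm38.p6, as 250 bases before to 50 after each gene's start, while the counts were made on mm39. Capitals run from the half-site GGACTAGCTT to the half-site GAACATGTCT, within a stretch at chr17:29090866-29090977 on the plus strand. They include the gap, which belongs to neither half-site. Lower case means only that a base lay outside this match.
Cdkn1a: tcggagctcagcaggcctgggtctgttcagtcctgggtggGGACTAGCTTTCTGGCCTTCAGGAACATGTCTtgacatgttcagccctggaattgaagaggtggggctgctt
The pattern was found in 1 of 14 matched arrest promoters (7.14%) and in 0 of 7 matched death promoters, against 20 of 27025 promoters of the table (0.074%). A match is a string of letters and no measured site.

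**Figure D2:**
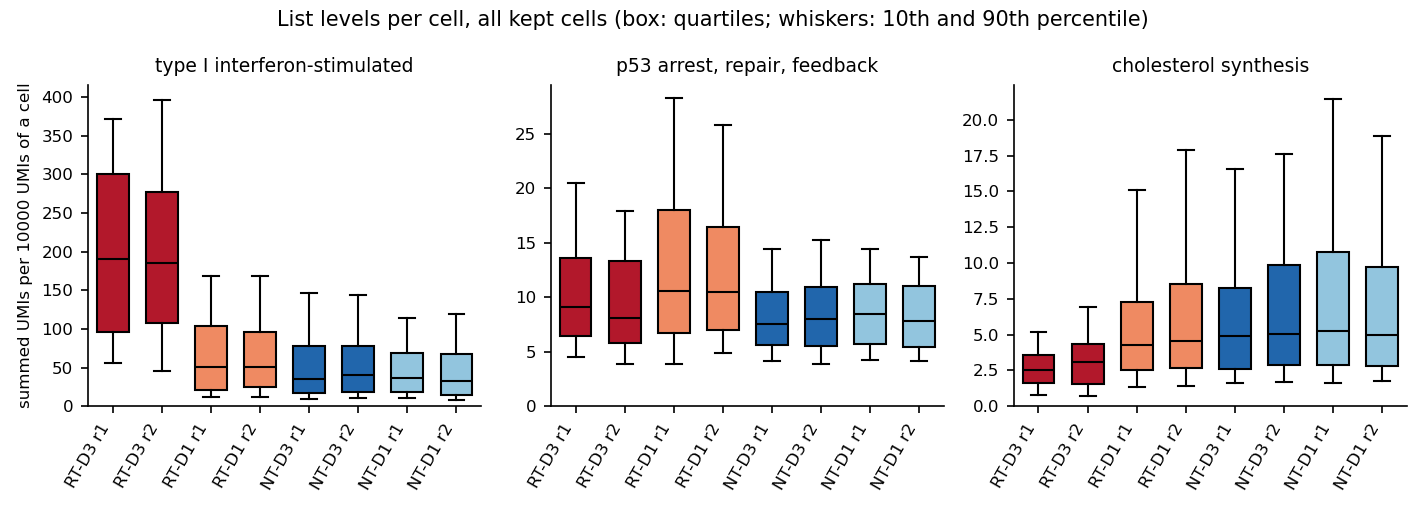
UMIs per 10000 of a cell's UMIs (y axes, linear) for type I interferon-stimulated genes, p53 arrest targets and cholesterol synthesis genes, over all kept cells in 8 pools; boxes span the quartiles with a line at the median, and whiskers reach the 10th and 90th percentiles. The interferon medians of RT-D3, 190.89 and 185.63, lie above every other pool drawn, the p53 tail is longest in RT-D1, and the cholesterol tail is shortest in RT-D3.

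Type I interferon-stimulated genes had more members called higher than any other list tested here in CD8-like, CD4 conventional-like and all kept cells. With 34 genes it was also the longest list. By share, guanylate-binding proteins and immunity-related GTPases stood close to it in CD4 conventional-like and all kept cells, with 13 of 15 higher in each. Of all genes tested, 1.94%, 2.09% and 3.52% were called higher in those 3 fits. In CD8-like cells 24 of 34 measured type I interferon-stimulated genes rose and none fell, all 34 lay above 0, and the median log2 fold change was 1.29, against 0.17 between NT-D3 and NT-D1. In CD4 conventional-like cells 30 of 34 rose with a median of 1.94, against -0.26 in unirradiated tumours, and in Treg-like cells 4 of 34 rose with a median of 1.33, against 0.47. Across all kept cells 31 of 34 rose, with a median of 1.45 against 0.18. With 1 irradiated pool left out, 7 to 21 of the 34 were called in CD8-like cells, 17 to 25 in CD4 conventional-like cells and 17 to 25 over all kept cells, none lower. RT-D1 against NT-D1 had a median of 0.67 in CD8-like cells and of -0.26 in CD4 conventional-like cells, with 0 of 34 genes called in either class. In CD4 conventional-like cells the NT-D1 pools differed among themselves, with sums of 11177 and 6670.1 CPM. The RT-D1 sums of 8506.2 and 7712.9 CPM lay between them. RTFTY720-D3 against FTY720-D3, both in wells 2 and 4, had a median of 1.56 in CD8-like cells, and FTY720-D3 against NT-D3, without radiation and across wells, had 0.24.

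Ifi27l2a, a small interferon-induced membrane protein, stood at 2990 and 2925 CPM in RT-D3 CD8-like pools, against 862 and 756 CPM in RT-D1 ones, with 687 and 634 CPM in NT-D3, 716 and 590 CPM in NT-D1, 3310 and 2677 CPM in RTFTY720-D3, and 636 and 948 CPM in FTY720-D3. The 4 pools of tumours irradiated 3 days before stood together above all others. The log2 fold change between RT-D3 and RT-D1 was 1.87 (SE 0.18, adjusted p = 0.0012), and it exceeded the unirradiated day effect by 1.85 (adjusted p = 0.02). Irf7, the transcription factor that amplifies interferon production, stood at 410 and 522 CPM in RT-D3, against 158 and 169 CPM in RT-D1, with 99.2 to 123 CPM in the 4 unirradiated pools (1.51, SE 0.17, adjusted p = 0.0018). Xaf1, an interferon-inducible antagonist of XIAP, stood at 278 and 400 CPM in RT-D3, against 120 and 135 CPM in RT-D1 (1.41, SE 0.18, adjusted p = 0.0029). Both RT-D1 pools of Irf7 were already above all 4 unirradiated pools, and RT-D3 was higher again.

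Ifi211 and Ifi204, of the IFI200 family of interferon-inducible proteins that includes nucleic acid sensors, were among the 10 largest increases. Ifi211 stood at 197 and 184 CPM in RT-D3 CD8-like pools, against 19.8 and 24.9 CPM in RT-D1, with 34.8 and 17.6 CPM in NT-D3 and 36.3 and 23.1 CPM in NT-D1 (3.06, SE 0.38, adjusted p = 0.0023). RT-D1 was no higher than unirradiated cells here, and the day effect exceeded the unirradiated one by 3.25 (adjusted p = 0.049). Ifi204 stood at 149 and 215 CPM in RT-D3, against 10.1 and 11.7 CPM in RT-D1, with 16.9 and 6.7 CPM in NT-D3 and 10.1 and 4.74 CPM in NT-D1 (4.04, SE 0.59, adjusted p = 0.0049). It lost the call without RT-D1 replicate 2 (adjusted p = 0.07). The genes of this family are close copies, so reads can be split among them, and the same holds for Ifit3b, which stood at 191 and 213 CPM in RT-D3, against 49.4 and 58 CPM in RT-D1 (1.90, SE 0.20, adjusted p = 0.0012).

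Isg15, a ubiquitin-like modifier, and Cxcl10 were taken, after their values were seen, to show in how many CD8-like cells interferon-stimulated genes were detected. Isg15 stood at 932 and 1248 CPM in RT-D3 CD8-like pools, against 318 and 331 CPM in RT-D1 (1.75, SE 0.34, adjusted p = 0.02). After thinning it was detected in 85.2% and 84% of RT-D3 CD8-like cells, against 48.5% and 51.4% of RT-D1 cells, with 35.3% and 36.8% in NT-D3 and 38.5% and 31.4% in NT-D1. Cxcl10, a chemokine that attracts CXCR3+ cells, was detected in 37% and 38% of RT-D3 cells, against 13.6% and 13.6% of RT-D1 cells. Both pools of each group lay close together. The antiviral gene Mx1 and Usp18, also chosen after their values were seen, had log2 fold changes of 1.14 and 1.71 (adjusted p = 0.027 and 0.024). Isg15, Usp18 and Mx1 each lost the call in at least 3 of 4 cases with a pool left out (adjusted p up to 0.19), while Ifi27l2a, Irf7, Xaf1, Ifi211 and Ifit3b kept it.

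The interferon signal of single cells moved as a whole distribution. The median cell gave 190.89 and 185.63 interferon-stimulated UMIs per 10000 in RT-D3, against 50.86 and 51.13 in RT-D1, with 35.36 and 40.07 in NT-D3 and 36.12 and 32.47 in NT-D1. The 10th percentile of RT-D3 was 56.2 and 45.79 per 10000, about the RT-D1 median. RTFTY720-D3 stood at 154.53 and 178.82, and FTY720-D3 at 26.11 and 50.72. The 90th percentile was 371.53 and 396.8 in RT-D3, against 168.91 and 168.11 in RT-D1, with 146.17 and 144.21 in NT-D3 and 95.51 and 191.22 in FTY720-D3, so cells with high values were present in the other groups too. Irf7, Xaf1, Ifit3b and the antiviral Parp14 had day effects over all kept cells that exceeded the unirradiated ones by 1.55, 1.07, 1.85 and 0.98.

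**Figure D3:**
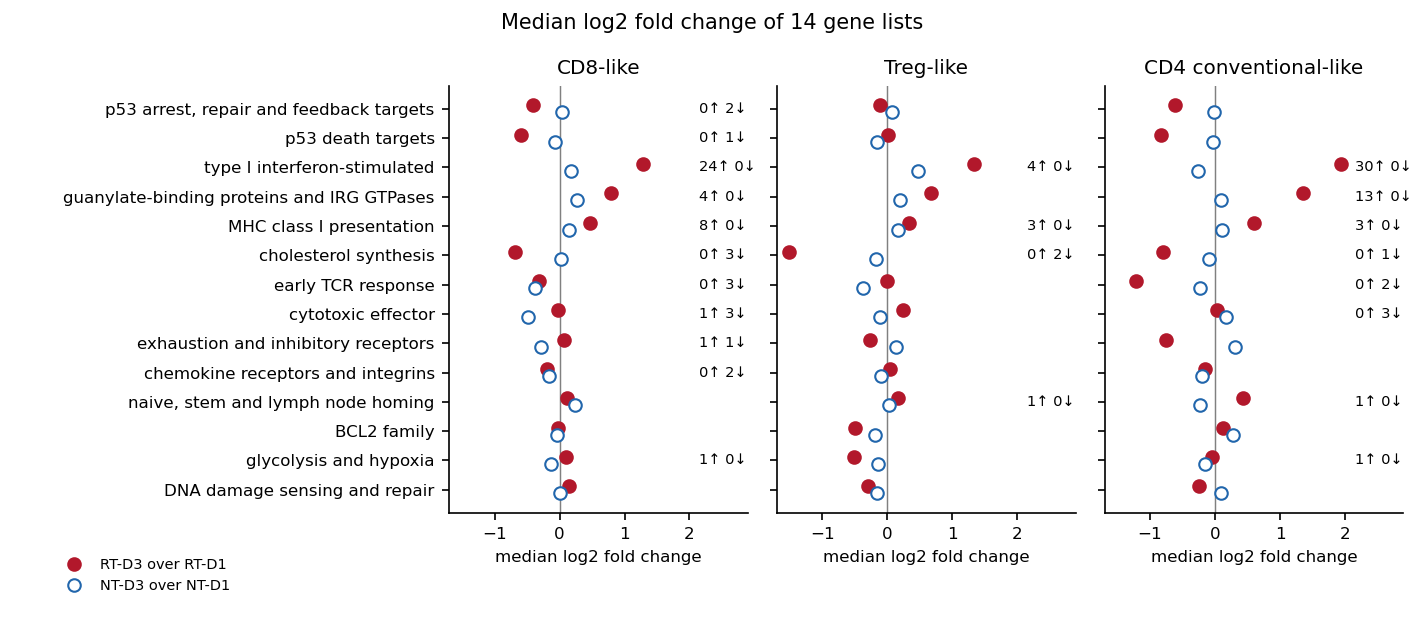
Median log2 fold change (x axis) of 14 gene lists in CD8-like, Treg-like and CD4 conventional-like cells; filled red points are RT-D3 over RT-D1 and open blue points NT-D3 over NT-D1, with the numbers of genes called higher and lower between RT-D3 and RT-D1 beside each list. Of the lists drawn, the interferon list lies farthest right in all 3 classes, at 1.29 in CD8-like, 1.33 in Treg-like and 1.94 in CD4 conventional-like cells, and cholesterol synthesis lies left of 0 in each.

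The promoters of interferon-stimulated members are shown because these groups rose and the DNA element bound by the interferon factor ISGF3 can be read in them. The motif searched was GAAANNGAAA on either strand in the 300-base RefSeq promoters. Capitals mark its matches, overlapping ones merged.
Isg15, chr4:156200835-156200936, minus strand: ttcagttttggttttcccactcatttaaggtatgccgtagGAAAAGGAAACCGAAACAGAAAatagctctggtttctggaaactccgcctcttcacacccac
Ifit3b, chr19:34607729-34607852, plus strand: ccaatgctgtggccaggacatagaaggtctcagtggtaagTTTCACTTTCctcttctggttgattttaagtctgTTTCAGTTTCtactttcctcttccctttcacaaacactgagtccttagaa
Rsad2, chr12:26456523-26456612, minus strand: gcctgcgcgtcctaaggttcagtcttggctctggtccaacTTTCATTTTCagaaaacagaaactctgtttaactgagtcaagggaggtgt
Irgm1, chr11:48871421-48871490, minus strand: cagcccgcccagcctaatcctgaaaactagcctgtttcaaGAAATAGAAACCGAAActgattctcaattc
Gbp5, chr3:142496729-142496818, plus strand: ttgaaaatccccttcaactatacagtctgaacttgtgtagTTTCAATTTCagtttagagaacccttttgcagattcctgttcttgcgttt
Tgtp1, chr11:48992274-48992363, minus strand: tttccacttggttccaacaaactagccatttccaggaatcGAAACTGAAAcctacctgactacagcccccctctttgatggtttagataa
H2-T22, chr17:36042884-36042973, minus strand: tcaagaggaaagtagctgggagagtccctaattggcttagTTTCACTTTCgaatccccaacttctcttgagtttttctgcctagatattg
The motif was found in 15 of 25 matched interferon-stimulated promoters (60%), 10 of 11 matched promoters of guanylate-binding proteins and immunity-related GTPases (90.9%) and 4 of 17 matched MHC class I promoters (23.5%), against 347 of 8683 promoters of genes tested (4%).

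Antiviral genes of the same list rose in CD4 conventional-like cells. Rsad2, which encodes the antiviral enzyme viperin, stood at 962 and 541 CPM in RT-D3, against 58.5 and 82.2 CPM in RT-D1, with 50.5 to 188 CPM in the 4 unirradiated pools (3.34, SE 0.38, adjusted p = 0.00074). Slfn8, a Schlafen family gene, stood at 721 and 609 CPM in RT-D3, against 146 and 148 CPM in RT-D1, with 166 to 228 CPM in the unirradiated pools (2.16, SE 0.23, adjusted p = 0.00074). Ifit1 stood at 1314 and 1013 CPM in RT-D3, against 164 and 184 CPM in RT-D1 (2.73, SE 0.32, adjusted p = 0.00074). The RT-D1 pools lay within or near the range of unirradiated pools in these 3 genes, and the RT-D3 pools lay far above it. Cxcl10 stood at 1650 and 660 CPM in RT-D3, against 44.9 and 32.6 CPM in RT-D1 (4.94, SE 0.62, adjusted p = 0.001). Usp18, the deconjugase of ISG15, rose by 2.65 and Trim30c by 3.96 (adjusted p = 0.00074 and 0.0051). Of the 34 genes, 17 had a day effect that differed from the unirradiated one.

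Cluster 9, led by Trim30c, Ifi204, Rsad2 and Mx1 and left unnamed, held 15 of 41 CD4 conventional-like cells in RT-D3 (36.59%) and 1 of 148 in RT-D1 (0.68%), while cluster 2 held 15 (36.59%) and 88 (59.46%). Without cluster 9, called interferon genes in CD4 conventional-like cells numbered 11 of 34 and all called genes 32. Slfn8 then kept 1.71 (adjusted p = 0.024), while Rsad2 had 1.96 (0.09), Ifit1 1.68 (0.09), Usp18 1.53 (0.064), Cxcl10 3.74 (0.13) and Trim30c 2.40 (0.42). By construction this setting takes out cells led by interferon genes. In CD8-like cells clusters 1 (38.1%) and 9 (25%) held most RT-D3 cells and clusters 0 (28.3%) and 7 (17.25%) the largest parts of RT-D1 cells, and 16 of 34 interferon genes were called without cluster 9.

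Treg-like cells rested on 12 and 20 cells in RT-D3, against 27 and 142 in RT-D1, and showed the same direction with fewer calls. Irf7 stood at 903 and 682 CPM in RT-D3, against 182 and 176 CPM in RT-D1, with 94.9 to 164 CPM in the unirradiated pools (2.14, SE 0.29, adjusted p = 0.014). Bst2, which encodes the virion-retaining protein tetherin, stood at 1545 and 1895 CPM in RT-D3, against 486 and 445 CPM in RT-D1 (1.89, SE 0.26, adjusted p = 0.014). Ifi27l2a stood at 7674 and 9716 CPM in RT-D3, against 4163 and 3515 CPM in RT-D1 (1.18, SE 0.24, adjusted p = 0.044), and Oasl2 at 286 and 129 CPM in RT-D3, against 24.8 and 27.1 CPM in RT-D1 (2.91, SE 0.54, adjusted p = 0.037). All 4 were higher in both RT-D3 pools than in either RT-D1 pool. Of the 36 genes called in Treg-like cells, 0 remained past the threshold without RT-D3 replicate 1, without RT-D1 replicate 1 or without RT-D1 replicate 2, and 51 genes were called without RT-D3 replicate 2. Every Treg-like call given here therefore depends on all 3 of those pools.

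Among guanylate-binding proteins and IRG GTPases, which act against intracellular pathogens and answer mainly to interferon gamma, 4 of 15 rose in CD8-like cells with a median of 0.79, and 13 of 15 rose in CD4 conventional-like cells with a median of 1.36. Of 16 in Treg-like cells 0 were called by edgeR, with 7 at an unadjusted p under 0.05 and 0 by DESeq2, and the median was 0.68. Tgtp1 stood at 79.3 and 81.8 CPM in RT-D3 CD8-like pools, against 36.4 and 31.6 CPM in RT-D1 (1.26, SE 0.16, adjusted p = 0.0029). Irgm1 stood at 188 and 239 CPM in RT-D3, against 73.9 and 126 CPM in RT-D1 (1.08, SE 0.23, adjusted p = 0.029), and Gbp4 and Gbp5 had 0.69 and 0.92 (adjusted p = 0.017 and 0.044). Groups did not overlap in these 4 genes, as in 321 of the 322 genes called in CD8-like cells. Tgtp1 kept the call with each pool left out, while Irgm1, Gbp4 and Gbp5 lost it in at least 3 of 4 cases (adjusted p up to 0.24). Tgtp2 stood at 934 and 673 CPM in RT-D3 CD4 conventional-like pools, against 174 and 188 CPM in RT-D1 (2.13, adjusted p = 0.0043), and Gbp5 at 252 and 172 CPM in RT-D3, against 42.9 and 75 CPM in RT-D1 (1.72, adjusted p = 0.0066). Called members there fell to 0 of 15 without RT-D3 replicate 1 and to 0 without cluster 9, and Tgtp1 with Tgtp2 and the Gbp genes are near-identical copies whose reads can be split.

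MHC class I presentation genes rose with smaller changes: 8 of 19 in CD8-like cells (median 0.47), 3 in CD4 conventional-like cells (0.60) and 3 in Treg-like cells (0.34). H2-K1, a classical class I heavy chain, stood at 3748 and 4718 CPM in RT-D3 CD8-like pools, against 2704 and 2947 CPM in RT-D1 (0.58, adjusted p = 0.027). H2-T22, a non-classical class I molecule, stood at 438 and 580 CPM in RT-D3, against 254 and 259 CPM in RT-D1, with 201 to 240 CPM in the unirradiated pools (0.99, SE 0.16, adjusted p = 0.0079). Tapbp, the peptide-loading chaperone tapasin, stood at 408 and 411 CPM in RT-D3, against 260 and 287 CPM in RT-D1 (0.58, adjusted p = 0.024), and Psmb8, an immunoproteasome subunit chosen after its values were seen, at 790 and 904 CPM in RT-D3, against 576 and 629 CPM in RT-D1 (0.49, adjusted p = 0.032). The groups did not overlap in these 4 genes, as in nearly all genes called in CD8-like cells. In Treg-like cells H2-Q6 stood at 1288 and 898 CPM in RT-D3, against 240 and 341 CPM in RT-D1 (1.89, SE 0.28, adjusted p = 0.018), and H2-Q7 had 1.37 (0.031). Nlrc5, the transactivator of class I genes, stood at 436 and 525 CPM in RT-D3 CD4 conventional-like pools, against 259 and 266 CPM in RT-D1 (0.88, adjusted p = 0.031). No class I gene was called in CD8-like cells without RT-D3 replicate 2 or without either RT-D1 pool, and H2-Q and H2-T genes are close copies. Per cell, all 19 genes together took a median of 232.13 and 237.63 UMIs per 10000 in RT-D3, against 151.09 and 162.92 in RT-D1, over all kept cells.

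The cytokine and chemokine genes Il2, Xcl1, Ifng, Ccl3, Ccl4, Ccl1 and Il13 fell in RT-D3 CD8-like cells. They came from the named-gene rule, not from a list of cytokines, and only part of the early TCR response list given further on fell with them. Il2, the growth factor of T cells, had 1.1 and 1.7 CPM (3 UMIs in all) in RT-D3, against 324 and 250 CPM in RT-D1, with 9.76 and 13.5 CPM in NT-D3 and 85.7 and 124 CPM in NT-D1. Its RT-D3 level was 0.512% of the RT-D1 level (95% counting interval 0.106% to 1.5%), and the difference passed edgeR's test (adjusted p = 0.0049). Il2 was detected after thinning in 0 of 27 and 0 of 50 RT-D3 cells, against 8.74% and 9.05% of RT-D1 cells. Those zeros allow shares of up to 11.1% and 6%, so the limit of RT-D3 replicate 1 lies above the RT-D1 shares. Unthinned shares were 3.45% and 3.64% in RT-D3, against 12.8% and 12.2% in RT-D1. Xcl1, the chemokine that draws XCR1+ dendritic cells, stood at 111 and 132 CPM in RT-D3, against 3413 and 2475 CPM in RT-D1, with 1815 and 1048 CPM in NT-D3 and 1925 and 2921 CPM in NT-D1 (-4.59, SE 0.49, adjusted p = 0.0013). RT-D3 lay far below all 3 other groups, and the day effect of Xcl1 differed from the unirradiated one by -3.83 (adjusted p = 0.049).

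Ifng, the gene of interferon gamma, stood at 960 and 604 CPM in RT-D3 CD8-like pools, against 3776 and 3859 CPM in RT-D1, with 1305 and 469 CPM in NT-D3 and 1884 and 2891 CPM in NT-D1 (-2.29, SE 0.41, adjusted p = 0.013). NT-D3 also lay below NT-D1, by 1.43 on the log2 scale, and the day effects were not shown to differ (-0.86, adjusted p = 0.63). Ccl3 stood at 236 and 486 CPM in RT-D3, against 2592 and 2717 CPM in RT-D1 (-2.87, SE 0.47, adjusted p = 0.0079), and Ccl4 at 1125 and 1308 CPM in RT-D3, against 5264 and 5572 CPM in RT-D1 (-2.15, SE 0.37, adjusted p = 0.011). RTFTY720-D3, in the same wells as RT-D3, stood at 1973 and 3221 CPM for Ccl3 and 5015 and 9261 CPM for Ccl4, so these chemokines were not low in every irradiated day 3 pool. Both encode inflammatory chemokines. Ccl1, a ligand of CCR8, stood at 119 and 11.9 CPM in RT-D3, against 768 and 975 CPM in RT-D1 (-3.81, SE 0.73, adjusted p = 0.018), and 1 cell held 78% of its RT-D3 UMIs. Il13, a type 2 cytokine, had 0 and 2.56 CPM (3 UMIs) in RT-D3, against 27.4 and 22.9 CPM in RT-D1, or 5.76% of that level (95% counting interval 1.18% to 17.1%).
These cytokine values moved with colour. With both colours weighted equally Xcl1 kept the call at -3.35 (adjusted p = 0.0035), while Ifng (-1.60, 0.0597), Ccl4 (-1.16, 0.246), Ccl3 (-1.68, 0.234) and Ccl1 (-1.26, 0.655) did not. In cells that the deposited names call green, Xcl1 (adjusted p = 0.2) and Il2 (0.42) were not called by edgeR's test. Only if the names of 1 replicate were turned would a single colour mix both. Leaving out a pool kept Il2 and Xcl1 called and cost Ccl3 (adjusted p = 0.051), Ccl4 (up to 0.067), Ifng (up to 0.093), Ccl1 (up to 0.079) and Il13 (up to 0.061) the call in at least 1 case. Cluster 8, led by Il2, Il13, Ccl3 and Ifng, held none of the 84 RT-D3 CD8-like cells and 44 of the 371 RT-D1 ones (11.86%), and its part in these differences was not tested.

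Of 18 early TCR response genes 3 fell (Il2, Egr2 and Egr3) and none rose in CD8-like cells, with a median of -0.32, against -0.38 in unirradiated tumours. Egr2 and Egr3, transcription factors of the calcineurin and NFAT axis, had few reads. Egr2 stood at 11 and 14.5 CPM in RT-D3, against 55.9 and 42.5 CPM in RT-D1, with 21.2 to 45 CPM in the unirradiated pools (-1.91, SE 0.42, adjusted p = 0.033). Egr3 stood at 6.61 and 11.9 CPM in RT-D3, against 71.4 and 33.1 CPM in RT-D1 (-2.40, SE 0.54, adjusted p = 0.033). RT-D3 lay below every other group in both. The calls were lost in at least 3 of 4 cases with a pool left out (adjusted p up to 0.15), and Egr2 lost it with colours weighted equally (adjusted p = 0.423). Other large decreases in CD8-like cells were Hivep3, a zinc finger protein, at 14.3 and 11.1 CPM in RT-D3, against 121 and 72.3 CPM in RT-D1 (-2.92, SE 0.35, adjusted p = 0.0021), Bcat1, an aminotransferase of branched-chain amino acids, at -3.86 (0.026), and Tanc2, a scaffold protein, at -2.81 (0.036). Hivep3 kept the call with each pool left out, and Bcat1 and Tanc2 did not (adjusted p up to 0.17).

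Cytotoxic and inhibitory genes moved in both directions in CD8-like cells. Of 21 cytotoxic effector genes 1 rose (Gzmb) and 3 fell (Ifng, Ccl3 and Ccl4, given above), with a median of -0.03, and of 17 exhaustion and inhibitory receptor genes 1 rose (Lag3) and 1 fell (Cd160), with a median of 0.07. Gzmb, the granzyme B gene, stood at 3160 and 2741 CPM in RT-D3, against 1158 and 1526 CPM in RT-D1, with 623 and 434 CPM in NT-D3 and 774 and 817 CPM in NT-D1 (1.14, SE 0.23, adjusted p = 0.024). Lag3, an inhibitory receptor for MHC class II, stood at 489 and 493 CPM in RT-D3, against 251 and 143 CPM in RT-D1, with 214 to 330 CPM in the unirradiated pools (1.33, SE 0.30, adjusted p = 0.035). Cluster 1, with Lag3 among its leading genes, held 38.1% of RT-D3 and 9.16% of RT-D1 CD8-like cells. The part of that cluster in the rise of Lag3 was not tested. Gzmb was above all unirradiated pools on both days and higher on day 3. Cd160, a receptor for HVEM, stood at 61.7 and 59.6 CPM in RT-D3, against 182 and 175 CPM in RT-D1, with 103 and 93.2 CPM in NT-D3 and 161 and 174 CPM in NT-D1 (-1.56, SE 0.28, adjusted p = 0.014). Tnfrsf18, which encodes the costimulatory receptor GITR, stood at 348 and 379 CPM in RT-D3, against 207 and 160 CPM in RT-D1 (0.99, SE 0.16, adjusted p = 0.0079), and Hif1a, the hypoxia factor, at 1019 and 942 CPM in RT-D3, against 494 and 404 CPM in RT-D1 (1.13, SE 0.19, adjusted p = 0.0089). The integrin genes Itga1 and Itgb1 fell by 0.77 and 0.71 on the log2 scale (adjusted p = 0.022 and 0.028). Each of these 7 genes lost the call without at least 1 pool, Gzmb and Cd160 whichever pool was left out (adjusted p 0.064 to 0.15 and 0.056 to 0.083). Across all kept cells Gzmb had 1.02 (adjusted p = 0.013), 1.71 more than in unirradiated tumours.

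**Figure D4:**
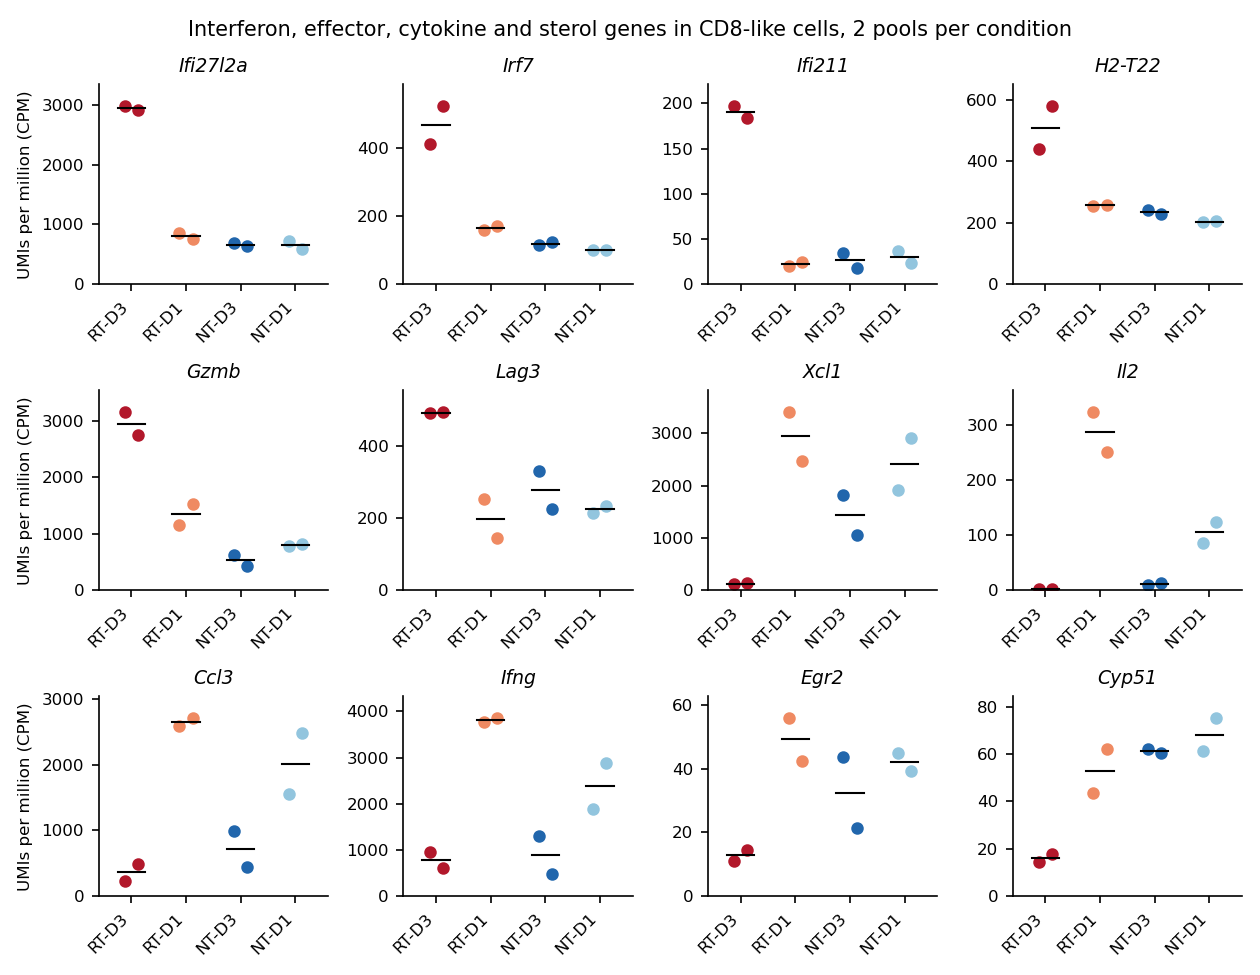
CPM of 12 genes in CD8-like cells (y axes, linear, from 0) in RT-D3, RT-D1, NT-D3 and NT-D1, with 1 point per pool and a bar at the mean of 2 pools. Ifi27l2a, Irf7, Ifi211, H2-T22, Gzmb and Lag3 stand highest in both RT-D3 pools, while Xcl1, Il2, Egr2 and Cyp51 stand lowest there; Ccl3 and Ifng overlap between RT-D3 and NT-D3.

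The cytokine genes Ccl1, Csf2, Tnf and Ifng fell in CD4 conventional-like cells. Ccl1 had no UMI in RT-D3, against 4375 and 805 CPM in RT-D1, with 871 and 890 CPM in NT-D3 and 550 and 774 CPM in NT-D1, and was at least 307-fold lower against a floor of 3 counts over both RT-D3 pools (adjusted p = 0.00074), a bound that is 160-fold without RT-D1 replicate 1 and 860-fold without RT-D1 replicate 2. Csf2, the gene of the growth factor GM-CSF, had 1 UMI in RT-D3, against 1291 and 320 CPM in RT-D1, or 0.322% of that level (95% counting interval 0.00815% to 1.8%), which is 0.527% without RT-D1 replicate 1 and 0.131% without RT-D1 replicate 2. Tnf stood at 16.8 and 10.8 CPM in RT-D3, against 759 and 280 CPM in RT-D1, with 71.7 to 191 CPM in the unirradiated pools (-5.29, SE 0.84, adjusted p = 0.0043). RT-D1 lay above and RT-D3 below the unirradiated pools in Tnf. Ifng stood at 101 and 67.3 CPM in RT-D3, against 1689 and 526 CPM in RT-D1 (-3.77, adjusted p = 0.022), and Nkg7, a cytotoxic granule protein, at 274 and 194 CPM in RT-D3, against 991 and 704 CPM in RT-D1 (-1.88, SE 0.27, adjusted p = 0.0021). Of 18 early TCR response genes 2 fell, with a median of -1.22 against -0.23 in unirradiated tumours: Egr1 by 2.78 and Nr4a1 by 2.38 on the log2 scale (adjusted p = 0.009 and 0.042). Ccl1 and Nkg7 kept the call with each pool left out, while Csf2, Tnf, Ifng, Egr1 and Nr4a1 lost it in at least 1 case (adjusted p up to 0.29), and without cluster 9 Nkg7 had -1.74 (0.07).

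Ccr7, the chemokine receptor that guides T cells to lymph nodes, stood at 638 and 525 CPM in RT-D3 CD4 conventional-like pools, against 80 and 139 CPM in RT-D1, with 123 to 150 CPM in the unirradiated pools (2.33, SE 0.32, adjusted p = 0.0017). Ramp3, a partner of the calcitonin receptor-like receptor, stood at 783 and 417 CPM in RT-D3, against 37.1 and 72.9 CPM in RT-D1 (3.30, SE 0.45, adjusted p = 0.0016), and Ccrl2, an atypical chemerin receptor, at 263 and 143 CPM in RT-D3, against 15.6 and 19.1 CPM in RT-D1 (3.42, SE 0.35, adjusted p = 0.00074). All 3 kept the call with each pool left out and without cluster 9. A single cell held 32% of the RT-D3 Ccr7 UMIs, and with colours weighted equally Ccr7 had 1.78 (adjusted p = 0.072). Ccr7 was the 1 of 14 naive and lymph node homing genes called in this class, and in Treg-like cells the 1 called was Il7r, the IL-7 receptor chain, at 553 and 502 CPM in RT-D3, against 116 and 176 CPM in RT-D1, with 122 to 382 CPM in the unirradiated pools (1.82, SE 0.33, adjusted p = 0.037).
The other large changes in CD4 conventional-like cells were increases of Gm5861 (6.14), Pde7b (5.48), C130026I21Rik (3.93), Gm5431 (3.86) and Gm4951 (3.35), and decreases of the TCR segment Trbv13-1 (-3.10) and of Cd7 (-2.76). Gfod1, Hcfc2 and Tmem163 stood at 4.08%, 6.65% and 8.78% of their RT-D1 levels, on few UMIs. Each of these 10 genes lost the call without at least 2 pools. Capg, an actin-capping protein, fell by 1.41 on the log2 scale (adjusted p = 0.0099) and lost the call without 3 of the pools (adjusted p up to 0.085).

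Genes of cholesterol synthesis fell between the days in irradiated tumours. Under FTY720, which had no day 1 group, they were lower at day 3 in irradiated than in unirradiated tumours. Over all kept cells 11 of 20 measured members fell, none rose, all 20 lay below 0 and the median log2 fold change was -1.04, against -0.18 in unirradiated tumours. The medians were -0.68 in CD8-like cells with 3 of 20 lower, -1.51 in Treg-like cells with 2 of 20 lower, and -0.80 in CD4 conventional-like cells with 1 of 17 lower. RTFTY720-D3 against FTY720-D3, within wells 2 and 4, had a median of -1.03 over all kept cells. Cyp51, lanosterol 14-demethylase, stood at 12.3 and 23.3 CPM in RT-D3, against 88.8 and 89.7 CPM in RT-D1, with 69.5 and 78.6 CPM in NT-D3, 99 and 102 CPM in NT-D1, 30.9 and 16.3 CPM in RTFTY720-D3, and 49.5 and 72.2 CPM in FTY720-D3 (-2.26, SE 0.26, adjusted p = 0.00073). The 4 pools of tumours irradiated 3 days before were the lowest of the 12. The day effect of Cyp51 differed from the unirradiated one by -1.82 (adjusted p = 0.037).

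The members that fell lie at several steps of the pathway. Idi1, the isomerase of isopentenyl diphosphate, stood at 18.5 and 19.7 CPM in RT-D3, against 52.6 and 53.1 CPM in RT-D1 (-1.46, SE 0.19, adjusted p = 0.0015), and Fdps, farnesyl diphosphate synthase, at 24.7 and 29.3 CPM in RT-D3, against 68.6 and 83.2 CPM in RT-D1 (-1.48, SE 0.20, adjusted p = 0.0019). RT-D3 pools lay below RT-D1 pools without overlap in each. Insig1, the sterol-dependent brake on SREBP processing, stood at 12.3 and 16.2 CPM in RT-D3, against 36.7 and 43.4 CPM in RT-D1 (-1.47, SE 0.21, adjusted p = 0.0023). Other called members were Mvd (-1.89, adjusted p = 0.034), Sqle, squalene epoxidase (-1.84, 0.008), Hmgcs1 (-1.23, 0.025), Fdft1, squalene synthase (-1.12, 0.01), and Srebf2, the gene of SREBP2 itself (-0.81, 0.004). With 1 irradiated pool left out 6 to 9 of the 20 remained called; Cyp51, Idi1, Fdps, Insig1 and Srebf2 kept the call in each case and Mvd, Sqle, Hmgcs1 and Fdft1 did not (adjusted p up to 0.16). In cells named green alone 1 of 20 was called and in cells named red alone 2 of 20, none higher.

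In CD8-like cells Cyp51 stood at 14.3 and 17.9 CPM in RT-D3, against 43.6 and 62.1 CPM in RT-D1 (-1.72, SE 0.30, adjusted p = 0.012), Srebf2 at 46.3 and 44.3 CPM in RT-D3, against 71.1 and 78.2 CPM in RT-D1 (-0.73, adjusted p = 0.038), and Sqle had -1.55 (0.048). All 3 lost the call in at least 3 of 4 cases with a pool left out (adjusted p up to 0.26). In Treg-like cells Insig1 fell by 2.09 on the log2 scale (adjusted p = 0.04), and in CD4 conventional-like cells Cyp51 fell by 2.19 (adjusted p = 0.027). Per cell the 90th percentile of summed cholesterol synthesis genes was 5.2 and 6.94 UMIs per 10000 in RT-D3, against 15.09 and 17.87 in RT-D1 and 16.56 to 21.43 in the 4 unirradiated pools. Medians differed less, at 2.53 and 3.08 in RT-D3, against 4.28 and 4.54 in RT-D1. The medians in wells 2 and 4 were 2.88 and 2.61 per 10000 in RTFTY720-D3, against 5.48 and 4.3 in FTY720-D3.

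**Figure D5:**
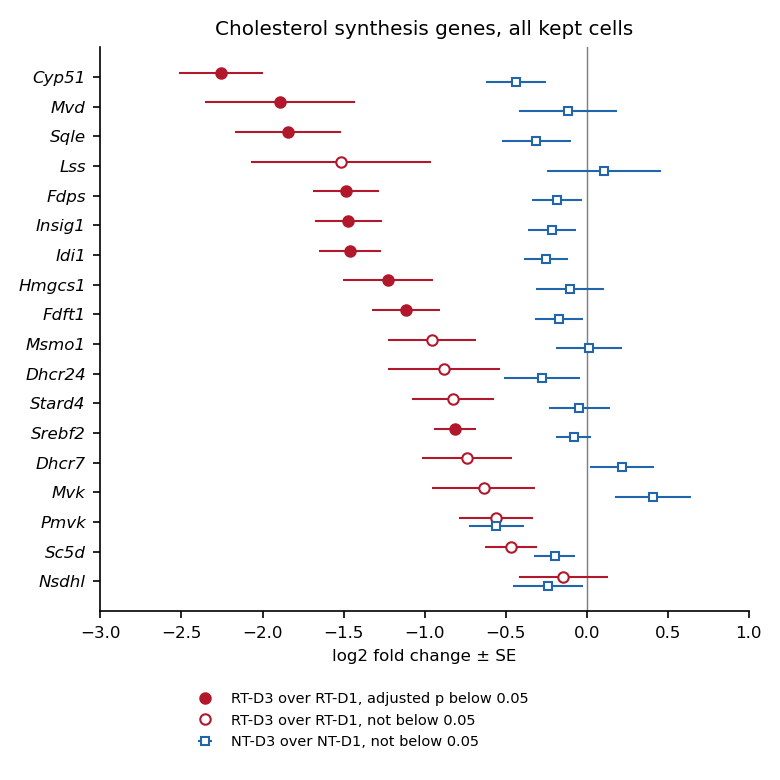
Log2 fold change of RT-D3 over RT-D1 (x axis) with its SE for 18 of the cholesterol synthesis genes over all kept cells, ordered by fold, in red (filled where adjusted p is below 0.05), and of NT-D3 over NT-D1 as open blue squares. All 18 red points lie left of 0, from -2.26 for Cyp51, and 9 of them are filled.

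Hmgcs1 is shown because its promoter was the 1 of 13 matched promoters of the list (7.69%) that held the sterol regulatory element searched, TCACNCCAC on either strand, against 388 of 27025 promoters (1.44%). Capitals mark the match, within a stretch at chr13:119690174-119690262 on the plus strand of GRCm38.p6.
Hmgcs1: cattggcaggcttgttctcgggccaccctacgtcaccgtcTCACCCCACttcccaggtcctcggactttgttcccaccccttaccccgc
The other 12 promoters did not hold these letters in the window.

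No cell cycle gene passed edgeR's test in any class, and DESeq2 called 3 across the classes: Cdk1 higher in CD8-like cells, and Rrm2 and Top2a, named after their values were seen, lower in CD4 conventional-like cells. In CD8-like cells 0 of 29 S phase and 0 of 28 G2 and mitosis genes were called by edgeR, with 5 and 4 at an unadjusted p under 0.05 and 0 and 1 by DESeq2. Their medians were 0.34 and 0.81, against -0.29 and -1.12 between NT-D3 and NT-D1. Summed S phase genes overlapped, at 2188 and 1215.2 CPM in RT-D3, against 1379.7 and 1363.6 CPM in RT-D1. Summed G2 and mitosis genes stood at 1078.6 and 572.66 CPM in RT-D3, against 519.77 and 483.53 CPM in RT-D1. RT-D3 replicate 1 was the highest in both. Cluster 13, with Ccna2 and Birc5 among its leading genes, held 3 of 84 RT-D3 and 7 of 371 RT-D1 CD8-like cells. Cdk1, the mitotic kinase, stood at 34.1 and 11.9 CPM in RT-D3 CD8-like pools, against 8.66 and 8.07 CPM in RT-D1 (1.41, adjusted p = 0.084), and Gins2, a replication factor, had 0.85 (0.12). The medians pointed the other way in Treg-like cells, at -0.60 for S phase and -1.31 for G2 and mitosis, on 12 and 20 RT-D3 cells, and in CD4 conventional-like cells, at -1.20 and -1.62, on 41 RT-D3 cells. Of 24 DNA damage sensing and repair genes in CD8-like cells 0 were called by edgeR, with 3 at an unadjusted p under 0.05 and 0 by DESeq2, and the median was 0.14. Of 15 heat shock and dissociation genes, which can follow tissue handling, 0 were called in CD8-like cells, with 5 at an unadjusted p under 0.05 and 1 by DESeq2, and the median was -0.13. Of 11 Treg identity genes in Treg-like cells 0 were called by edgeR, with 1 at an unadjusted p under 0.05 and 0 by DESeq2, and the median was 0.12.

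Some of the largest increases rested on single cells or were shared by all pools of a well. Ly6c1 stood at 17.6 and 63.1 CPM in RT-D3 CD8-like pools, against 0.361 and 0.989 CPM in RT-D1 (5.67, adjusted p = 0.01), with 74% of its RT-D3 UMIs in 1 cell. In Treg-like cells it stood at 745 and 59.1 CPM in RT-D3, against 27.7 and 19.2 CPM in RT-D1, with 59% in 1 cell. Tdpoz8, Gm19951 and Kcnip1 likewise had 57% to 63% of their RT-D3 UMIs in 1 CD8-like cell. Hdac9, a class II histone deacetylase, stood at 104 and 43.5 CPM in RT-D3 CD8-like pools, against 10.5 and 6.75 CPM in RT-D1 (3.13, SE 0.50, adjusted p = 0.0079), while in the wells of RT-D3 it stood at 88.7 and 47 CPM in RTFTY720-D3 and, without radiation, at 76.4 and 47.4 CPM in FTY720-D3. Hdac9 was therefore high in every pool of wells 2 and 4 and low in every pool of wells 1 and 3. Tube1, Tuba8 and Gm17767 rose by 3.53, 3.36 and 3.19 and lost the call without at least 2 pools (adjusted p up to 0.3).

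The largest changes in Treg-like cells included Ms4a4c, an interferon-inducible membrane protein, at 577 and 304 CPM in RT-D3, against 30.6 and 16.4 CPM in RT-D1 (4.36, SE 0.66, adjusted p = 0.019), and Cxcl10 at 2250 and 903 CPM in RT-D3, against 90.3 and 181 CPM in RT-D1 (3.48, SE 0.65, adjusted p = 0.038). Sdc3, a heparan sulfate proteoglycan, stood at 123 and 103 CPM in RT-D3, against 20.4 and 13 CPM in RT-D1 (2.85, adjusted p = 0.028). Pcsk1 had 4.23 (0.031), with 47% of its RT-D3 UMIs in 1 cell and 0.53 (0.99) with colours weighted equally. Gm4951, AW146154, Hdac9 and Gm19951 had 3.11, 2.64, 2.58 and 2.55. Decreases were few: Lpin2, a phosphatidate phosphatase, stood at 9.87 and 10.3 CPM in RT-D3, against 53.9 and 50.3 CPM in RT-D1 (-2.34, 0.04), Rpsa had -1.46 (0.048) and mt-Nd5 -1.45 (0.031). The TCR segments Trbv26 and Trbv19 had no UMI in RT-D3 Treg-like cells and were at least 15.5-fold and at least 11.8-fold lower than in RT-D1 among 32 RT-D3 cells, with 9.52-fold for Trbv26 without RT-D1 replicate 2.

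In CD8-like cells 171 of the 322 genes called between RT-D3 and RT-D1 were also called in the same direction between RTFTY720-D3 and FTY720-D3, which called 1154 of 10573 genes (10.9%), used no pool of the main comparison and lay within wells 2 and 4.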

How the data were processed

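Single-cell 5' gene expression and hashtag libraries of 4 wells were analysed. The values the authors deposited are raw UMI counts of each gene or hashtag in each barcode. Per the file headers they came from Cell Ranger 8.0.1, and per the submitters' processing notes the build was mm39. Filters of the authors beyond cell calling were not given in these sources, and the TCR tables were not used here. Hashtag and cell filters kept 2740 of 2816 barcodes and the hashtag rule left out 0 cells. No doublet caller was run.

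Counts scaled to 10000 per cell were log-transformed and clustered with scanpy 1.11.5 and leidenalg 0.10.2 (2000 variable genes without TCR segments and without the p53, cell cycle, DNA repair, interferon, GTPase, MHC class I, heat shock and cholesterol lists, 30 components, 15 neighbours, resolution 1, 14 clusters). A class name required a minimum of 3 markers, each with a fold of 1.25 or more and detected in 10% of the cells or more, and cells of unnamed clusters were placed by Cd8a and Cd8b1, Cd4 and Foxp3 transcripts. No cluster was named naive CD8-like, so that planned class gave no result.

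Raw counts were summed per condition, replicate and class and fitted over 12 pools and 6 condition means (11 pools in CD4 conventional-like cells, where FTY720-D3 kept 1) with edgeR 4.0.16 (R 4.3.3, filterByExpr, TMM, glmQLFit, glmQLFTest) and Benjamini-Hochberg adjustment at 0.05. An SE is the fold change divided by the square root of its F statistic. Pools held 53 to 521 irradiated cells and 1346632 to 11202484 UMIs. The fit was tested on simulated counts. DESeq2 1.42.0, RLE factors, no count filter, a replicate block, the 4 irradiated pools alone, single colours, a lineage gate, at least 10 cells per sum, and each pool left out were alternatives. Sums without clusters 3 and 10, without interferon-led cluster 9, and with colours weighted equally were chosen after seeing the data. Clusters 3 and 10 held 7 and 8 naive CD8-like markers. Lef1 and Ccr7 were among the leading genes of cluster 10, but Klra7, Klra6, Klra1 and Tyrobp were among those of cluster 3. That setting therefore did not remove naive-led cells alone. Detection shares used cells thinned to 8000 UMIs, with exact Clopper-Pearson intervals at 95% and a floor of 3 counts.

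The members, 25 gene lists and tests were chosen with earlier results of these data known. Named genes were, per class, the 10 largest changes in each direction among called genes whose pools did not overlap, every measured p53 target, and the 4 members of smallest p of each other list in CD8-like and Treg-like cells. Genes named beyond that rule in CD4 conventional-like and all kept cells, and those so described in the text, were chosen after their values were seen. A few genes that these rules select are not reported here.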

Additional observations from a re-analysis of the deposited data

Results flagged for a closer look

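The day effect after radiation (RT-D3 over RT-D1) differed from the day effect without it (NT-D3 over NT-D1) by edgeR's test of the difference for 26 results named above, at adjusted p below 0.05. The values below are the first effect minus the second on the log2 scale. The RT effect compares pools of different wells and the NT effect pools of the same wells, with no well term in the fit.

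In CD8-like cells the difference was 1.85 for Ifi27l2a, 3.25 for Ifi211 and -3.83 for Xcl1. The values in CD4 conventional-like cells were 5.77 for Cxcl10, 4.8 for Trim30c, 4.5 for Rsad2, 4.03 for Ccrl2, 3.3 for Usp18, 3 for Ifit1, 2.44 for Ccr7 and 2.13 for Slfn8. It was -14.24 for Ccl1, a fitted value that depends on the prior count since Ccl1 had no UMI in RT-D3, -5.67 for Trbv13-1, -5.21 for Tnf, -3.99 for Tmem163 and -2.31 for Nkg7. Across all kept cells it was 4.32 for Ly6c1, 1.85 for Ifit3b, 1.71 for Gzmb, 1.55 for Irf7, 1.07 for Xaf1 and 0.98 for Parp14, and -6.69 for Il2, -3.93 for Xcl1, -1.82 for Cyp51 and -0.86 for Bax.

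The numbers of genes with such a difference rested on single pools. Without RT-D3 replicate 1, without RT-D1 replicate 1 or without RT-D1 replicate 2 the difference was called for 0 genes in CD8-like cells, against 11 with all pools and 28 without RT-D3 replicate 2. Across all kept cells it was called for 2 genes without RT-D3 replicate 1 and 1 gene without RT-D1 replicate 1, against 56.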

How the results depend on the processing

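Called genes between RT-D3 and RT-D1 in CD8-like cells, 322 in the report, numbered 524 with DESeq2, 1015 with no count filter, 175 with the 4 irradiated pools alone, 174 in green cells (40.2% higher, against 63.7%), 53 in red cells and 173 without cluster 9, and 54 to 217 with 1 irradiated pool left out. In Treg-like cells, with 36, they numbered 136 with DESeq2, 285 with no filter, 114 with the 4 pools alone, 139 in green and 10 in red cells, 60 with the lineage gate, 94 with at least 10 cells per sum and 202 with colours weighted equally, and 0 to 51 with a pool left out. In CD4 conventional-like cells, with 216, they numbered 470 with no filter, 74 in green and 38 in red cells and 32 without cluster 9, and 60 to 133 with a pool left out. Over all kept cells, with 687, they numbered 1382 with no filter, 370 in green and 46 in red cells and 385 without cluster 9, and 225 to 333 with a pool left out. Single colours use fewer cells per pool and follow the deposited names, which give each tag the other colour in replicate 2. They would mix colours only if the names of 1 replicate were turned. The cause of the other shifts was not tested.

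The difference between the RT and NT day effects was called in CD8-like cells for 11 genes, against 145 with DESeq2, 519 with no filter, 24 without naive-led clusters 3 and 10, 20 without cluster 9 and 0 to 28 with a pool left out. Across all kept cells it was called for 56, against 254 with DESeq2, 650 with no filter and 1 to 52 with a pool left out. It was called for 49 in CD4 conventional-like cells, against 103 with DESeq2, 242 with no filter, 3 without cluster 9 and 23 to 38 with a pool left out.

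With the replicate number as a block, called genes between RT-D3 and RT-D1 numbered 373, 33, 242 and 762 in CD8-like, Treg-like, CD4 conventional-like and all kept cells, and the difference between day effects 36 in CD8-like, 79 in CD4 conventional-like and 116 in all kept cells. Differences between the 2 replicates in RT-D3 and in RT-D1 correlated across genes at 0.124, -0.0757, 0.0304 and 0.0887 in the same 4 classes. The labels link RT-D3 and RT-D1 pools by replicate number only, while NT-D1, RT-D1 and NT-D3 of a replicate also share a well.

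Class shares of RT-D3 minus RT-D1 were -3.94 points for CD8-like, -0.457 for Treg-like and 4.41 for CD4 conventional-like cells. In red cells they were 3.74 for CD8-like and -0.926 for CD4 conventional-like cells, and the lineage gate gave 0.208 for Treg-like cells. With a pool left out they ran from -12.4 to 4.55, from -6.5 to 5.59 (1.43 without RT-D3 replicate 2) and from 0.634 to 8.18.

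Of 168 named gene and class pairs, 130 were called. Of these, 127 kept their direction under every setting, 33 kept the call with each irradiated pool left out, and 5 kept it under every setting: Ifi27l2a, Ifi211 and Xaf1 in CD8-like, Slfn8 in CD4 conventional-like and Xaf1 over all kept cells. The log2 fold changes that turned, in CD8-like cells unless said, were these. With each irradiated pool left out they ran from -0.15 to 0.20 for Btg2, -0.28 to 0.20 for Ppm1d, -0.53 to 0.07 for Plk3, -0.45 to 0.14 for Xpc, -0.32 to 0.08 for Pmaip1, -0.27 to 0.70 for Pidd1, -0.19 to 0.08 for Apaf1, and in Treg-like cells -0.19 to 0.95 for Cdkn1a and -0.37 to 0.13 for Ccng1. Green cells gave -0.50 for Btg2 and for Cdk1, 0.14 for Ppm1d, 0.08 for Plk3, 0.10 for Trp53inp1, 0.21 for Fas, 0.15 for Apaf1, 3.69 for Ccl1, 0.54 for Ccl4, 0.53 for Nr4a3 and 0.01 for Itgb1. Red cells gave 0.06 for Sesn1, 0.12 for Xpc and 0.05 for Cdkn1a in CD4 conventional-like cells. Colours weighted equally gave -0.15 for Btg2, 0.00 for Ppm1d, -0.11 for Perp and 0.01 for Apaf1. Apaf1 had 0.07 without clusters 3 and 10, and Pmaip1 had 0.01 without cluster 9. Depth limits genes of few reads in RT-D3, where a Treg-like sum held 12 and 20 cells.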

Other observations

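Ribosomal protein and mitochondrially encoded genes were chosen after the values were seen. Of 94 measured cytosolic ribosomal protein genes, 19 were lower in RT-D3 than in RT-D1 over all kept cells and none was higher (2.59% of all genes tested were lower), with a median log2 fold change of -0.33, against 0.11 between NT-D3 and NT-D1 and -0.55 between RTFTY720-D3 and FTY720-D3. Of 13 mitochondrially encoded genes, 3 were lower and none higher over all kept cells, with a median of -0.27, and in Treg-like cells 1 was lower with a median of -1.2. In irradiated day 3 pools with FTY720 the mitochondrial medians against FTY720-D3 were -1.1 in CD8-like and -0.85 in CD4 conventional-like cells. Median mitochondrial shares per cell were 1.067% and 0.912% in RTFTY720-D3, against 1.744% and 1.611% in FTY720-D3.

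RTFTY720-D3 CD8-like cells did not match RT-D3 ones in every programme. Phlda3 stood at 3.35 and 11.2 CPM in RTFTY720-D3, against 1.1 and 3.41 CPM in RT-D3, and Cdkn1a at 109 and 88.9 CPM in RTFTY720-D3, against 59.5 and 49.4 CPM in RT-D3. Ifng stood at 1307 and 2187 CPM in RTFTY720-D3, against 960 and 604 CPM in RT-D3. The drug effect in irradiated tumours was not tested here.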
